A study of Homo sapiens and Mus musculus with 4 samples.

Results

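LATS2, PTPN14 and NF2 encode Hippo pathway brakes on YAP. The TEAD peaks around them were described in human RD cells and in mouse YAP-ERMS cells. A peak was taken as near a gene when its midpoint lay within 150 kb of the gene's transcription start, which was given to the nearest kb. This rule found 40 of the 69714 listed peaks, namely 14 of 22681 in RD and 26 of 47033 in YAP-ERMS. Each of the 3 genes had at least 1 peak in both lists. That is common, since 59.8% of 300 kb tiles in RD and 77.3% in YAP-ERMS held at least 1 peak.

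The study mapped binding of TEAD transcription factors by chromatin immunoprecipitation and sequencing (ChIP-seq), in 4 libraries. RD is an established human embryonal rhabdomyosarcoma line, with a TEAD library and an IgG library as its control. YAP-ERMS cells came from mouse tumours driven by YAP under Myf5-Cre or Pax7-CreER, recombinases active in muscle progenitors and in satellite cells, with a TEAD library and an input library as the control. The labels do not say which of the 2 drivers gave the cells used, and they do not name the TEAD family member that the antibody recognises. Each list came from 1 TEAD library and 1 control library, so no value has a replicate error and no p-value is given. The files hold no read counts, so sequencing depth is unknown, and gene expression was not measured here.

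In the Hippo pathway, the MST kinases activate the LATS kinases, which phosphorylate YAP and its relative TAZ and keep them out of the nucleus. Unphosphorylated YAP enters the nucleus and acts on genes through TEAD factors, which bind the DNA letters GGAATG. LATS2 is one of the LATS kinases, NF2 encodes merlin, a membrane-linked scaffold that promotes LATS activation, and PTPN14 is a non-receptor tyrosine phosphatase that binds YAP and restrains it.

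The RD list had a peak at the start of LATS2 and of PTPN14 and none at the start of NF2, so the promoters of the 3 human genes are shown for comparison. The sequences are RefSeq promoters of GRCh38.p14, which is not the build of the peaks, and each runs from 250 bases before the start to 50 bases after it. They lie at chr13:21061537-21061836 (minus strand), chr1:214551553-214551852 (minus strand) and chr22:29603383-29603682 (plus strand) of that build. All 3 genes were matched in the table, and NF2 had a second entry that overlaps the one shown. Capitals mark GGAATG read on either strand, which appears as CATTCC where it lies on the opposite strand.
LATS2: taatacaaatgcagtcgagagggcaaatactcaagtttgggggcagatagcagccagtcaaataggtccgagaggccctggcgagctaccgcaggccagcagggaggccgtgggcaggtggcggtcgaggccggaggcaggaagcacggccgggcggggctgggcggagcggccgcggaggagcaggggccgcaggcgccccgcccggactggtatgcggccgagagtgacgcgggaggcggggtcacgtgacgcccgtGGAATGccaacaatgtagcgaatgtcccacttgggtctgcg
PTPN14: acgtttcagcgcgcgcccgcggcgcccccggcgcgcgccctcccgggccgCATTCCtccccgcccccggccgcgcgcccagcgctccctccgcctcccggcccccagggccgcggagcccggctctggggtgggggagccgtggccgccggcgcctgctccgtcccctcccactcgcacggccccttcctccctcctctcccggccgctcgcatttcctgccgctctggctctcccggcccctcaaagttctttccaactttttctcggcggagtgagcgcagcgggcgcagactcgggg
NF2: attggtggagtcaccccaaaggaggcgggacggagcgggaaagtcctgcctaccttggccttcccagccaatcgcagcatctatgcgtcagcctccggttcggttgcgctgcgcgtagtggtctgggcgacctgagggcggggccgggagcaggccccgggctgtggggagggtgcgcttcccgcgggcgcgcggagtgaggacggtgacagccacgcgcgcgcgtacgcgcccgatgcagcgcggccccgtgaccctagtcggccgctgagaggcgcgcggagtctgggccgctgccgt
The LATS2 promoter held GGAATG on the gene's own strand, from base 10 after the start counting the start as base 1. The PTPN14 promoter held it on the opposite strand, from 200 bases before the start. Neither NF2 entry held it, which says only that these letters are not in these windows. Over all 35116 promoters in the table, 14.0% held GGAATG on either strand, so its presence is not particular to these genes. The longer form GGAATGT, found in 3.46% of promoters and overlapping GGAATG wherever it occurs, was in none of the 3 genes' windows, and neither was the AP-1 motif TGANTCA (7.71% of promoters). The E-box letters CANNTG matched 4 times in the LATS2 promoter and not in the others (68.7% of promoters). The GC-box GGGCGG matched 3 times at LATS2 and 1 time each at PTPN14 and in both NF2 entries (45.0% of promoters). These promoters were rich in G and C, with 67.7% at LATS2, 77.3% at PTPN14 and 72.0% at NF2. The second NF2 entry had 65.0%, and the median over all promoters was 58.7%. The starts are known to the nearest kb in the build of the peaks, so whether a peak covers the printed bases themselves was not measured.

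LATS2 had a TEAD peak at its start in both cell types, meaning a midpoint within 1 kb of the stated position. Neither interval held that position itself. The nearer edge lay 0.01 kb from it in RD and 0.32 kb in YAP-ERMS, within its rounding. In RD this was its only peak, at chr13:21635450-21635990 of hg19, 541 bp wide and with a score of 1365. Scores are those the authors deposited. They were taken to be the peak caller's p-values on a log scale (minus 10 times log10), since both lists begin at a score of 80 and their names state the matching limit of 1e-08. The LATS2 peak held rank 611 of the RD list, and 97.3% of the listed peaks scored lower. The midpoint lay 0.3 kb from the stated start at 21.636 Mb, which is within the rounding of that position. The peak stood alone: the nearest listed peak was 234 kb away on the downstream side, and the next on the upstream side was 512 kb away. Only 3.53% of RD peaks, and 1.69% of those scoring 1000 or more, were at least 234 kb from their nearest neighbour. Chromosome 13 held few RD peaks, 251 in all, and 63.1% of its 300 kb tiles held none. Among those 251 peaks the LATS2 peak held rank 6, and the nearest peak on the chromosome with a higher score lay 2.73 Mb away.

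In YAP-ERMS, the start of Lats2 lay within a dense group of peaks. The window held 9 peaks, 2 of them with scores of 1000 or more, a level reached by 7.38% of the whole list. The peak at the start, chr14:58364481-58365678 of mm9, scored 1948 (rank 735 of the list, above 98.4% of it), with its midpoint 0.9 kb from the stated start at 58.366 Mb. A higher-scoring peak lay 13.1 kb upstream, at chr14:58377960-58380185, with a score of 2700 and a width of 2226 bp. It held rank 214 of the list and had the highest score near any of the 3 genes in YAP-ERMS. Between these lay a peak of score 311.7, 6.6 kb upstream. Peaks of scores 117.6 and 181.7 followed at 10.2 and 16.6 kb downstream. These 5 peaks formed a chain over 31.6 kb with gaps of at most 10 kb between neighbours, and 12.5% of YAP-ERMS peaks lay in chains of at least 5. The other 4 peaks lay 28.9, 39.9, 62.7 and 71.6 kb downstream, with scores of 168.3, 261.5, 109.4 and 176.4. The start peak was therefore alone in RD and in company in YAP-ERMS. The YAP-ERMS list was denser throughout, with 40.9% of its peaks more than 10 kb from any other, against 53.0% in RD. Species, tumour origin, control and possibly depth differ between the lists, and their part in this was not tested.

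**Figure D1:**
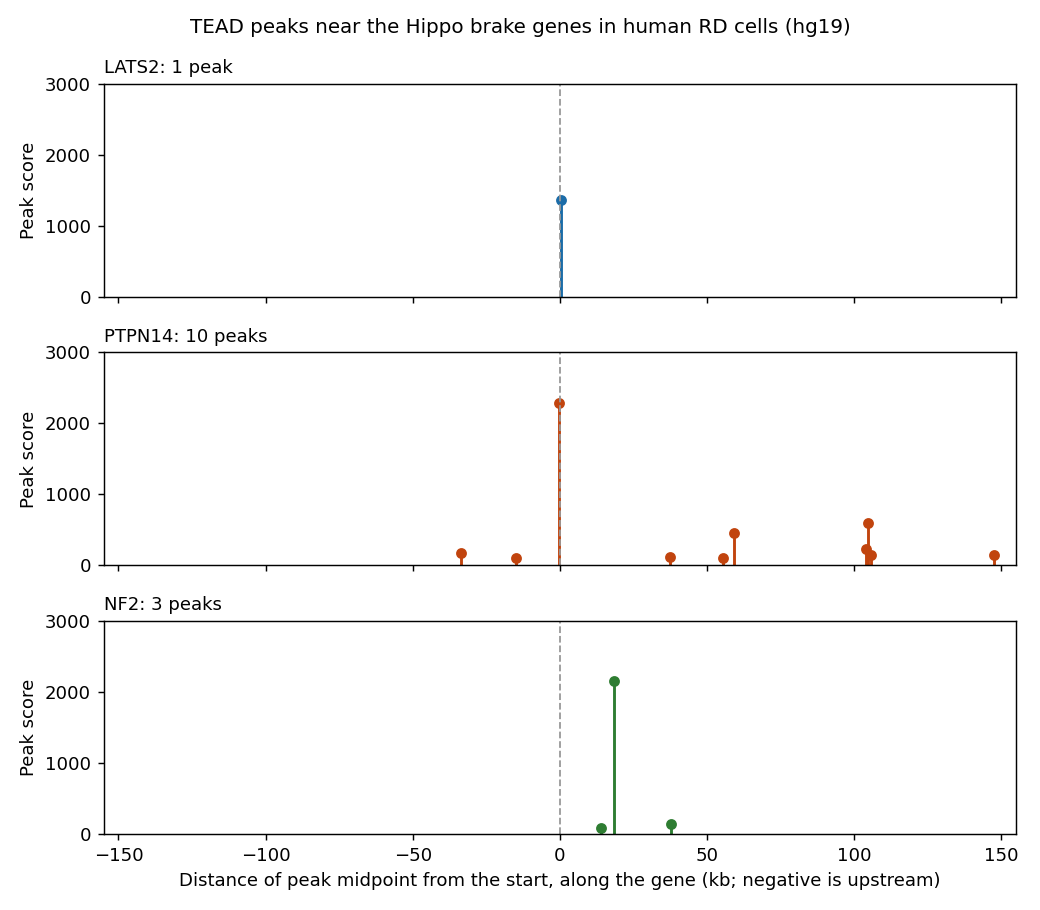
TEAD peaks within 150 kb of LATS2, PTPN14 and NF2 in RD. The horizontal axis is the distance of the peak midpoint from the start along the gene in kb, the vertical axis is the deposited score, and each stem is 1 peak. The highest stems of LATS2 (1365) and PTPN14 (2289) stand at the start, and that of NF2 (2156) stands 18.2 kb downstream.

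PTPN14 also had a TEAD peak at its start in both cell types, and in each it was the highest-scoring peak of the window. In RD it lay at chr1:214724854-214725567 of hg19, was 714 bp wide, scored 2289 and held rank 90 of the list, above 99.6% of it. Among the 2358 RD peaks of chromosome 1 it held rank 13, and the nearest higher-scoring peak lay 4.11 Mb away. In YAP-ERMS the start peak lay at chr1:191550971-191552647 of mm9, was 1677 bp wide, scored 1233 and held rank 2336, above 95.0% of its list. In both lists the midpoint was 0.2 kb from the stated start, at 214.725 Mb in hg19 and 191.552 Mb in mm9, so both intervals held that position.

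Around the human PTPN14 start there were 9 further RD peaks, with scores from 101 to 595.8. Of these, 7 lay downstream and 2 upstream. The highest was in a tight group of 3, from 104.0 to 105.6 kb downstream, which together spanned 1.94 kb and scored 239, 595.8 and 141.1 in order of distance. A pair at 55.5 and 59.0 kb downstream scored 101 and 457.5. The remaining downstream peaks, at 37.5 and 147.3 kb, scored 114 and 154.5. Upstream, peaks at 15.1 and 33.6 kb scored 105.3 and 172.1, and beyond the second of these the next listed peak on the chromosome was 2.69 Mb away. Of all gaps between neighbouring RD peaks, 0.34% were at least that long. The run of RD peaks thus ended shortly upstream of PTPN14 and continued downstream of its start.

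Around the mouse Ptpn14 start there were 7 further YAP-ERMS peaks, 3 upstream and 4 downstream. The highest of them lay close to the edge of the window, 147.8 kb downstream, with a score of 1139. Its neighbour at 139.4 kb scored 198.7. Peaks at 50.4 and 56.7 kb downstream scored 256.9 and 364.1. Upstream, peaks at 11.2, 18.2 and 108.5 kb scored 138.6, 316.9 and 143.6, and the nearer pair formed a chain of 3 with the start peak over 19.8 kb. Measured along the gene, some peaks of the 2 species stood at like distances: the RD peak at 147.3 kb and the YAP-ERMS peak at 147.8 kb, and the RD peaks at 55.5 and 59.0 kb and the YAP-ERMS peak at 56.7 kb. The RD group from 104.0 to 105.6 kb had no counterpart nearer than 33.8 kb. The pairs at like distances were picked from all peaks of the 2 windows, and how often such matches arise by chance was not tested. No alignment between the genomes was used, so like distances do not show that the same sequence was bound.

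NF2, unlike LATS2 and PTPN14, had no listed peak at its start in either cell type. In RD all 3 of its peaks lay downstream of the stated start at 30.000 Mb on chromosome 22. The strongest, at chr22:30017651-30018663 of hg19, had its midpoint 18.2 kb downstream, was 1013 bp wide and scored 2156. It held rank 124 of the RD list, above 99.5% of it, and rank 3 of the 318 RD peaks on chromosome 22. It was flanked by peaks of scores 91.0 and 144, at 13.9 and 37.6 kb downstream. On the upstream side of these 3 peaks the next listed peak was 311 kb from the nearest of them, so the start and the upstream side held no listed peak. The position of the 18.2 kb peak relative to the exons of NF2 was not analysed here.

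In YAP-ERMS, Nf2 had 9 peaks, and none reached a score of 1000. The nearest to the stated start at 4.750 Mb on chromosome 11 lay 5.7 and 8.7 kb upstream, with scores of 154.4 and 448. The nearest on the downstream side lay at 9.0 kb, with a score of 114.5. The highest-scoring was at chr11:4671492-4672992 of mm9, 77.8 kb downstream, with a score of 827.5 and rank 4773, above 89.9% of the list. A peak 11.7 kb downstream had nearly the same score, 802.2, and stood in a chain of 3 peaks from 9.0 to 16.8 kb downstream. The remaining peaks were at 16.8, 83.4 and 145.0 kb downstream (scores 209.2, 107.9 and 141.9) and 134.5 kb upstream (score 95.2). In both lists Nf2 or NF2 thus had peaks between 10 and 20 kb downstream of the start, at 13.9 and 18.2 kb in RD and at 11.7 and 16.8 kb in YAP-ERMS. The high score was at the farther of these in RD and at the nearer in YAP-ERMS. Such distances were not particular to Nf2, since Lats2 in YAP-ERMS had peaks 10.2 and 16.6 kb downstream. The range of 10 to 20 kb was not set in advance. Without an alignment between the genomes, like distances do not show that the same sequence was bound.

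**Figure D2:**
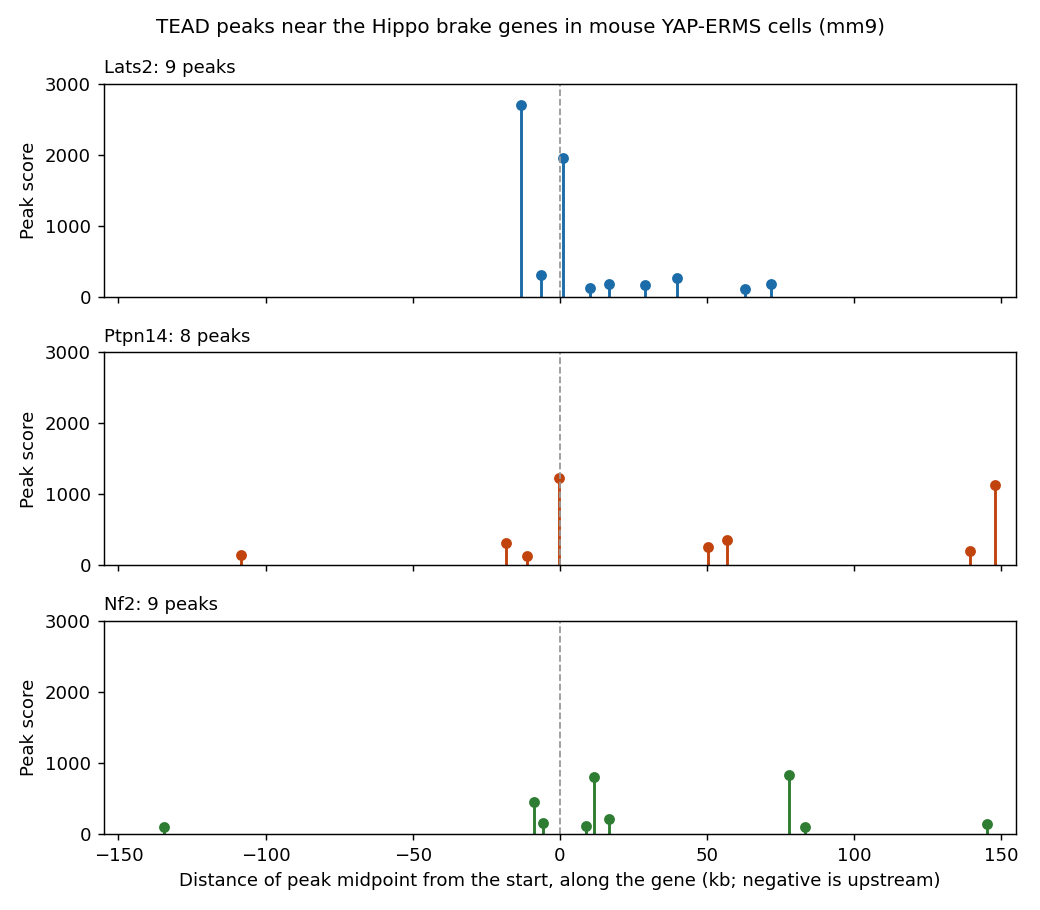
TEAD peaks within 150 kb of Lats2, Ptpn14 and Nf2 in YAP-ERMS, drawn as distance of the peak midpoint from the start along the gene (kb) against the deposited score, with 1 stem for each peak. Lats2 has high stems at the start (1948) and 13.1 kb upstream (2700), Ptpn14 at the start (1233) and 147.8 kb downstream (1139), and no stem of Nf2 exceeds 827.5.

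Across the 3 genes, most of the 40 peaks had midpoints farther than 1 kb from the start. Within 1 kb there were 2 in each list, at LATS2 and PTPN14. That zone is a small part of a window of 150 kb on each side, so these numbers do not show that start peaks are scarce. The share of all genes with such a peak was not measured. Farther than 1 kb from the start, RD had 10 peaks downstream and 2 upstream, and YAP-ERMS had 16 downstream and 8 upstream. Peaks of 1 locus are not independent, and part of the downstream side of each window is the gene itself, so these counts are a description.

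The number of peaks near each gene was set beside all 300 kb tiles of the same list. Tiles over unsequenced or unmappable stretches, which cannot hold a peak, were kept. They lower the shares of tiles that reach a number of peaks or a top score. The 9793 RD tiles had a median of 1 peak, and 40.2% had none. PTPN14 had 10, a number reached by 4.2% of the tiles, and NF2 had 3, reached by 32.2%. LATS2 had 1, reached by 59.8%, and within chromosome 13 by 36.9%. The 8567 YAP-ERMS tiles had a median of 4 peaks. There, the 9 peaks of Lats2 and the 9 of Nf2 were reached by 25.6% of the tiles and the 8 of Ptpn14 by 30.3%. By this count, human PTPN14 had a number of peaks that few RD tiles reached, and each of the other 5 windows had a number that at least 25.6% of tiles reached. The place of PTPN14 rested in part on weak and distant peaks. Limited to scores of 160 or more it had 5 peaks, reached by 8.03% of tiles, and within 100 kb it had 6, reached by 7.22% of 200 kb tiles, in comparisons chosen after seeing the data. Within 100 kb, the 9 peaks of Lats2 were reached by 12.5% of 200 kb YAP-ERMS tiles.

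**Figure D3:**
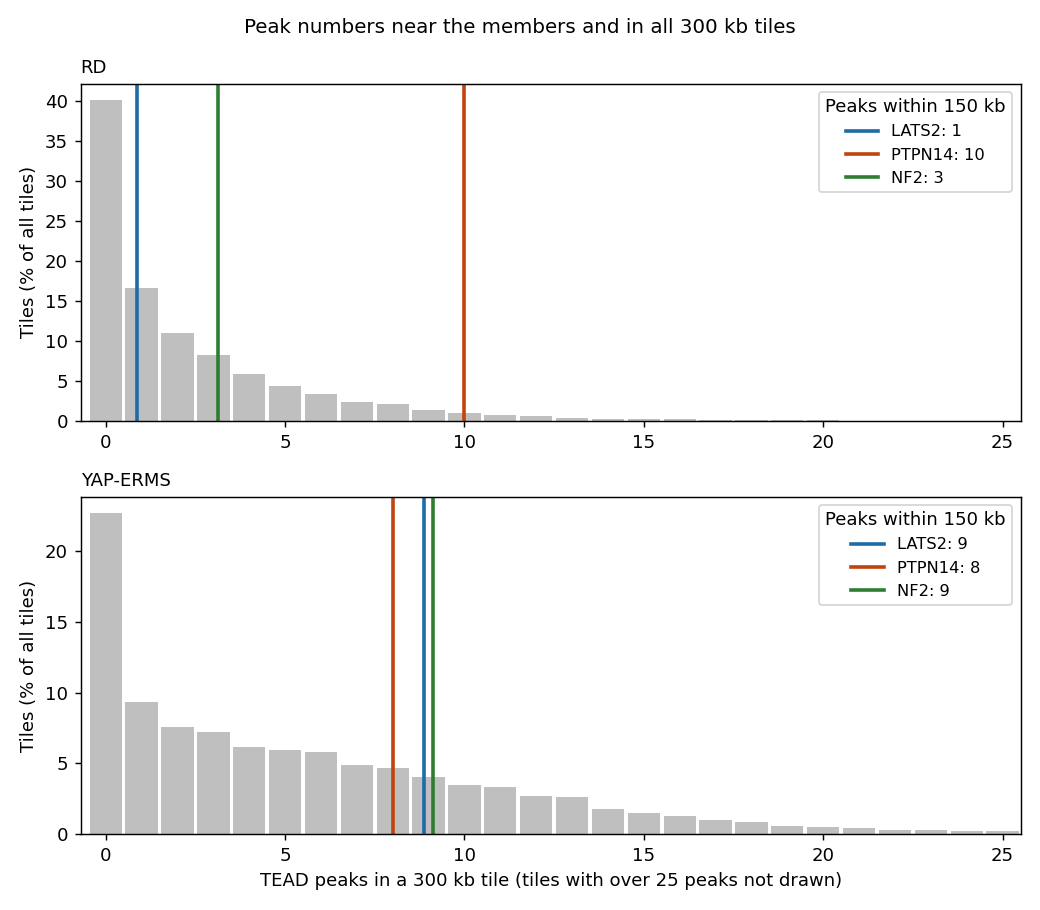
Number of TEAD peaks in 300 kb tiles of each list (grey bars, percent of tiles) with the number within 150 kb of each member as coloured lines. In RD, PTPN14 (10 peaks) stands in the tail of the bars and LATS2 (1) and NF2 (3) in their body, while in YAP-ERMS the lines stand close together at 8 and 9, LATS2 and NF2 being drawn slightly apart to keep both visible.

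By top score the genes kept the order of the counts in RD, but not in YAP-ERMS. Of the 14 RD peaks, 3 scored 1000 or more, 1 at each gene, against 5.47% of all RD peaks. A peak of that score was present in 10.1% of RD tiles. A top score as high as that of LATS2 was reached by 5.31% of the tiles, that of NF2 by 1.18% and that of PTPN14 by 0.868%. Of the 26 YAP-ERMS peaks, 4 scored 1000 or more, against 7.38% of that list, 2 at Lats2, 2 at Ptpn14 and 0 at Nf2. Such a peak was present in 26.2% of YAP-ERMS tiles. The top score of Lats2 was reached by 2.42% of those tiles, that of Ptpn14 by 19.6% and that of Nf2 by 32.6%. Thus each human gene had a peak of a score that few RD tiles reached, and in mouse this held for Lats2. Over all the members' peaks the median score was 163.3 in RD, against 189.4 over that list, and 203.9 in YAP-ERMS, against 205.1. The 11 RD peaks under 1000 had a median of 144, against 178.1 for the list's peaks under 1000, and the 22 such YAP-ERMS peaks a median of 179.1, against 188.3. The tiles are not centred on genes, and a comparison with windows around other genes was not made here.

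Set beside listed peaks of like score, the start peaks differed in width between the genes. The LATS2 peak in RD was 0.782 times as wide as the median of the 500 RD peaks nearest to it in score, and 6.8% of those were narrower. The Lats2 start peak in YAP-ERMS, 1198 bp wide, was 0.664 times as wide as its 500 counterparts, of which 3.4% were narrower. The PTPN14 start peaks were close to their counterparts, at 0.922 times in RD and 1.1 times in YAP-ERMS. The strong NF2 peak in RD, which is not a start peak, was wider, at 1.31 times, and 82.4% of its counterparts were narrower. The PTPN14 and NF2 peaks in RD held ranks 90 and 124, so their counterparts were the top 500 of the list. Most of those scored lower than the 2 peaks. At LATS2 the start peak was thus narrow for its score in both lists. In YAP-ERMS this was not particular to the start. The Lats2 peaks 28.9 and 71.6 kb downstream had ratios of 0.673 and 0.631, and the Nf2 peak at 11.7 kb had 0.744. Of the 26 YAP-ERMS peaks, 10 were narrower than the median of their counterparts and 16 wider. Over the members' peaks the ratio ran between 0.782 and 1.31 in the RD list, and between 0.631 and 1.98 in the YAP-ERMS list.

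**Figure D4:**
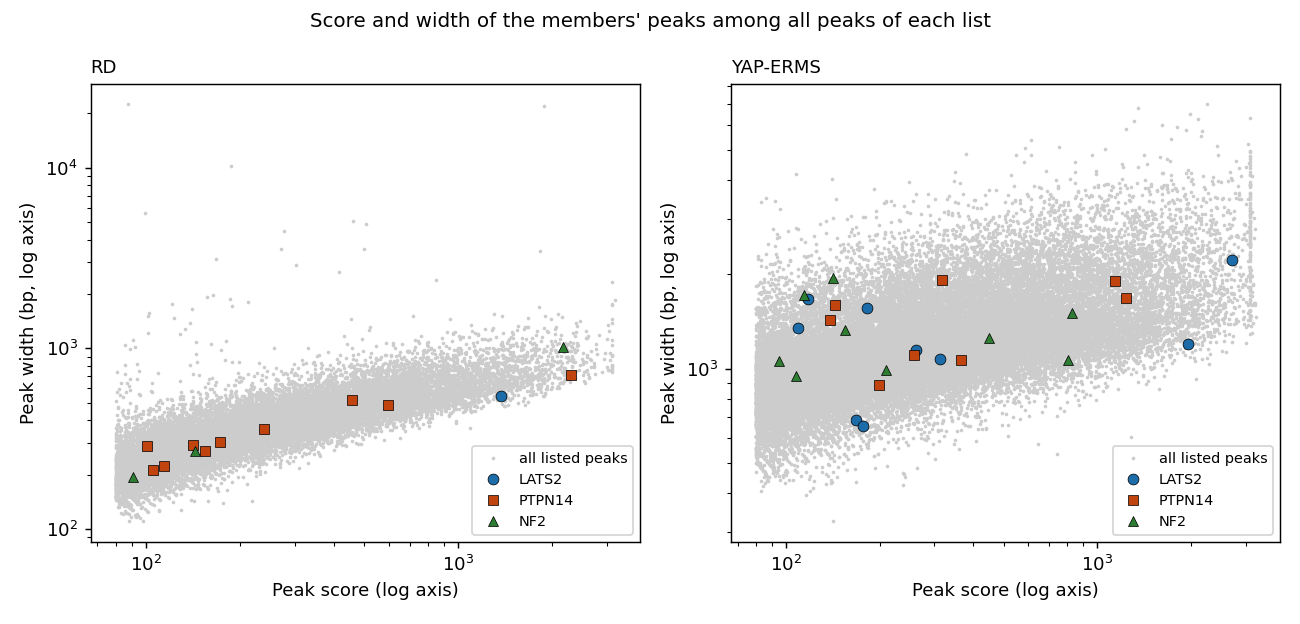
Score against width of every peak of each list (grey points, both axes log) with the peaks near LATS2, PTPN14 and NF2 marked. The members' peaks lie within the cloud of their list, and the LATS2 start peaks (1365 and 541 bp in RD, 1948 and 1198 bp in YAP-ERMS) lie at its lower edge.

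The limit of 150 kb decided a few members. In RD, the PTPN14 peak 147.3 kb downstream (score 154.5) lay just inside. In YAP-ERMS, the Ptpn14 peak of score 1139, at 147.8 kb, and the Nf2 peak 145.0 kb downstream did so. Peaks 150.8 kb downstream and 151.5 kb upstream of Ptpn14 (scores 91.7 and 136.3) and 152.4 kb downstream of Nf2 (score 105.4) lay just outside. The nearest excluded RD peaks were farther, at 173.4 kb downstream of PTPN14 and 176.8 kb downstream of NF2. A peak in a window can lie nearer to another gene. In the order of protein-coding genes in GRCh38.p14, LATS2 lies between XPO4 and SAP18, PTPN14 between SMYD2 and CENPF, and NF2 between NIPSNAP1 and CABP7. Which of these genes a distal peak acts on was not tested.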

How the data were processed

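TEAD peak lists of RD and YAP-ERMS cells were analysed. Per the labels' protocols, cells were fixed in 1% formaldehyde for 10 minutes and chromatin was sheared to 200 to 500 bases. Bowtie2 was the aligner and hg19 and mm9 the builds, per the submitters' processing notes. Peaks carry MACS names, and the names of the lists state IgG as control for RD and input for YAP-ERMS. Tool versions and duplicate handling were not given in the sources used here. In each list the authors deposited 1 score per peak, beginning at 80. Scores depend on depth and control and were ranked within a list only.

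Starts came with the rule that defines the members, rounded to kb. Human strands came from RefSeq and mouse strands from general knowledge. Windows, tiles of 300 kb between the first and last peak of the autosomes and X, chains and motif matches were computed with Python 3.11.15, numpy 2.4.6 and pandas 2.3.3. Counting in windows, tiling and joining were tested on simulated data. Every peak in the 6 windows is given. Members, lists and alternatives were chosen with earlier results of these data known. Other Hippo pathway genes and mouse promoters were not analysed here, for lack of an annotation of hg19 and mm9.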

Additional observations from a re-analysis of the deposited data

How the results depend on the processing

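The number of peaks and the highest score near each gene gave 12 results, which were recomputed under other score limits, windows and start positions, in 54 comparisons. Of these, 49 stayed within 1.5 times for a number of peaks or kept the score, and 5 moved. With a score of 160 or more, the peaks near PTPN14 in RD numbered 5 against 10, those near NF2 in RD 1 against 3, and those near NF2 in YAP-ERMS 4 against 9. With a window of 100 kb on each side, PTPN14 had 6 peaks in RD against 10, and 5 in YAP-ERMS against 8. The fewer peaks follow from the stricter limits. The share of tiles with as many peaks, recomputed under the same limits after the data were seen, ran from 4.2% to 8.03% for PTPN14 in RD, from 22.2% to 48.6% for NF2 in RD and from 12.5% to 25.6% for LATS2 in YAP-ERMS. No highest score changed in the 100 kb window or with the start moved by 1 kb. None could change, since each highest-scoring peak lay at most 77.8 kb from its start. The single LATS2 peak in RD, 0.3 kb from the start with a score of 1365, could not change in number either. These comparisons are among the 49, so that number is not a measure of stability. No paired analysis was possible because each group holds 1 library. Without read counts, a missing peak is one that did not pass the authors' limit at an unknown depth, not absent binding.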
